A study of Mus musculus with 24 samples.

Results

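The collagen gene family was taken as every gene whose symbol on the array was Col, a number, the letter a and a number. This rule found 42 symbols, of which 41 were kept because their log2 values averaged above 4 in 1 or more of the 4 groups, among 19801 genes and unnamed probe sets tested in all. All 41 lay above 4 in all 4 groups, and each had 1 probe set. Col24a1 and Col10a1 were the members nearest to the limit, with group means of 4.02 to 4.20 and 4.08 to 4.35, and Col17a1 fell just outside, with group means of 3.42 to 3.63. The array also carries 23 sets of background probes, whose mean values were 2.68 to 7.09. Over all mice 17 members averaged above the brightest of these sets and 24 did not, so the values of these 24 may hold background signal.

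RNA of whole hearts of 24 male mice of strain C57/BL6NCr, 4 to 5 months old and housed at 22 °C, was measured on Clariom S arrays, with 1 mouse on each array. TRα1+m mice carry the point mutation R384C in 1 copy of the thyroid hormone receptor α1 gene, which lowers the receptor's affinity for thyroid hormone and lets the mutant receptor oppose its normal counterpart in every cell that expresses it. The 4 groups of 6 mice were TRα1+m offspring of dams given the thyroid hormone T3, wild-type offspring of such dams, TRα1+m offspring of untreated dams and wild-type offspring of untreated dams. T3 was given to the dams at 0.5 mg/L in water that also held 0.01% of the carrier BSA, on embryonic days 12.5 to 18.5 as the labels give it, whereas the study's own text ends the treatment a day earlier, and untreated dams had 0.01% BSA alone. All dams were wild-type and mated with heterozygous males, and the offspring themselves were never treated. The question was how adult hearts differ by the mutant receptor and by T3 before birth. TRα1+m mice still carry the mutant receptor as adults, so earlier and present receptor action cannot be told apart. The labels do not say which mice were littermates, so the p-values measure the spread between mice without regard to shared dams.

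Collagens are extracellular proteins made of chains wound around each other into a helix. The fibrillar types I, III and V form the cables that give heart muscle its stiffness and are made mainly by fibroblasts. Type IV forms the sheet-like basement membrane around cardiomyocytes and vessels, type VI forms beaded filaments between both kinds of matrix, and the fibril-associated, transmembrane and multiplexin collagens bind or link these structures. In whole hearts, fewer cells of a type and less RNA per cell cannot be told apart.

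The values of the 41 members lay between 3.36 and 15.07 on the log2 scale. The standard deviation (SD) between mice of 1 group was 0.183 to 0.634, with a median of 0.327. The first principal component of all genes held 17.51% of the variance and set 5 mice apart, TRα1+m mice 16 and 17 and wild-type mice 14 and 15 of T3-treated dams and untreated TRα1+m mouse 4, all named here by the number in their label. Mouse numbers were below 20 for 9 mice and above 30 for 15, and this split crossed all 4 groups. Those below 20 were 2 TRα1+m and 3 wild-type mice of T3-treated dams and 3 TRα1+m mice and 1 wild-type mouse of untreated dams. Thra, the receptor gene itself, averaged 12.42 ± 0.18 in TRα1+m and 11.68 ± 0.09 in wild-type hearts after maternal T3, and 12.34 ± 0.22 in TRα1+m and 11.75 ± 0.19 in wild-type hearts without it (SD, n = 6 each). Thra was higher in TRα1+m hearts over both treatments (0.66 ± 0.09, adjusted p = 1.8e-05), and its probes were not shown to tell the mutant copy from the normal one. The mean of 6 cardiomyocyte markers was 17.86 to 18.65 in each mouse, where the highest value in the table was 19.93.

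Collagen genes were called by genotype, and none was called by maternal T3, which called only 0.0101% of all genes over both genotypes. Over both treatments, 9 members were called (adjusted p under 0.05 in limma, adjusted over all genes tested), 6 higher and 3 lower in TRα1+m hearts. This was 22% of the members, where 6.28% of all genes tested were called, 2.59% higher and 3.7% lower. At an unadjusted p under 0.05 there were 13 members, where 17.9% of all genes were. The fibrillar collagens Col1a1, Col1a2, Col3a1 and Col5a2, the type VI chain Col6a6 and the minor collagen Col28a1 were higher, and the basement membrane chains Col4a2, Col4a3 and Col4a4 were lower. The median difference was 0.09 over the members and -0.01 over all genes. The values by mouse and the differences of all members are plotted.

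**Figure D1:**
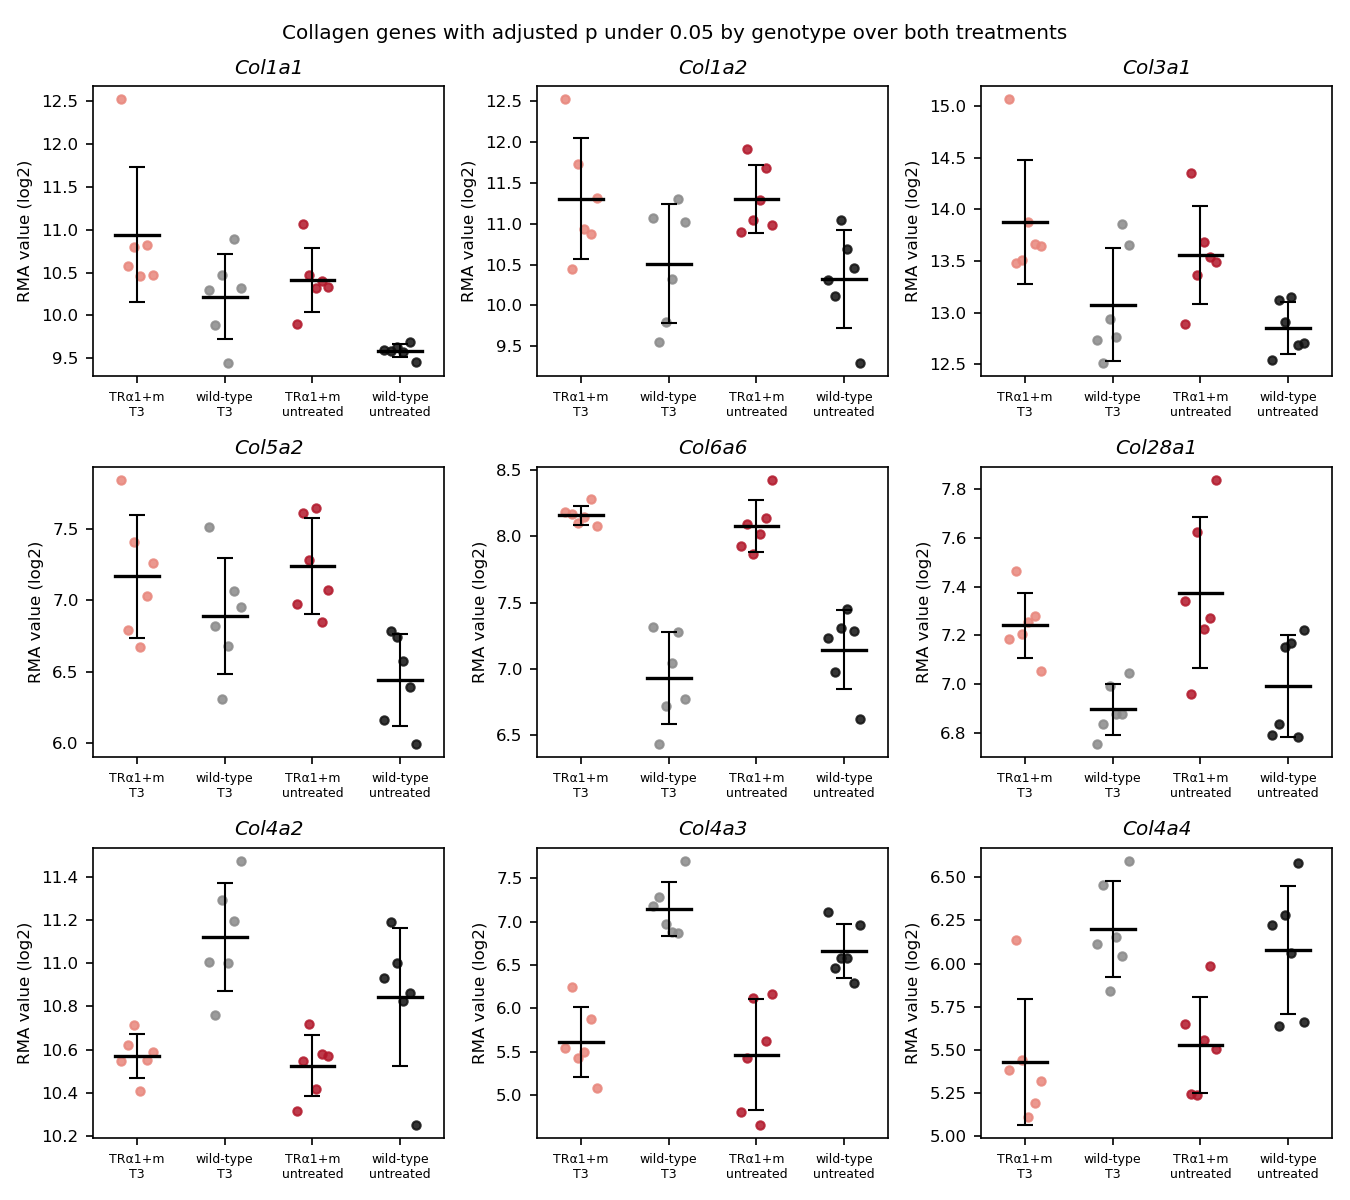
Log2 RMA values of the 9 collagen genes called by genotype over both treatments, with a point for each mouse, group means as horizontal lines and SD as error bars (n = 6 each). Col6a6 lay above and Col4a3 below every wild-type mouse in all 12 TRα1+m mice, and in Col1a1 and Col3a1 a single T3-exposed TRα1+m mouse lies far above the rest.

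**Figure D2:**
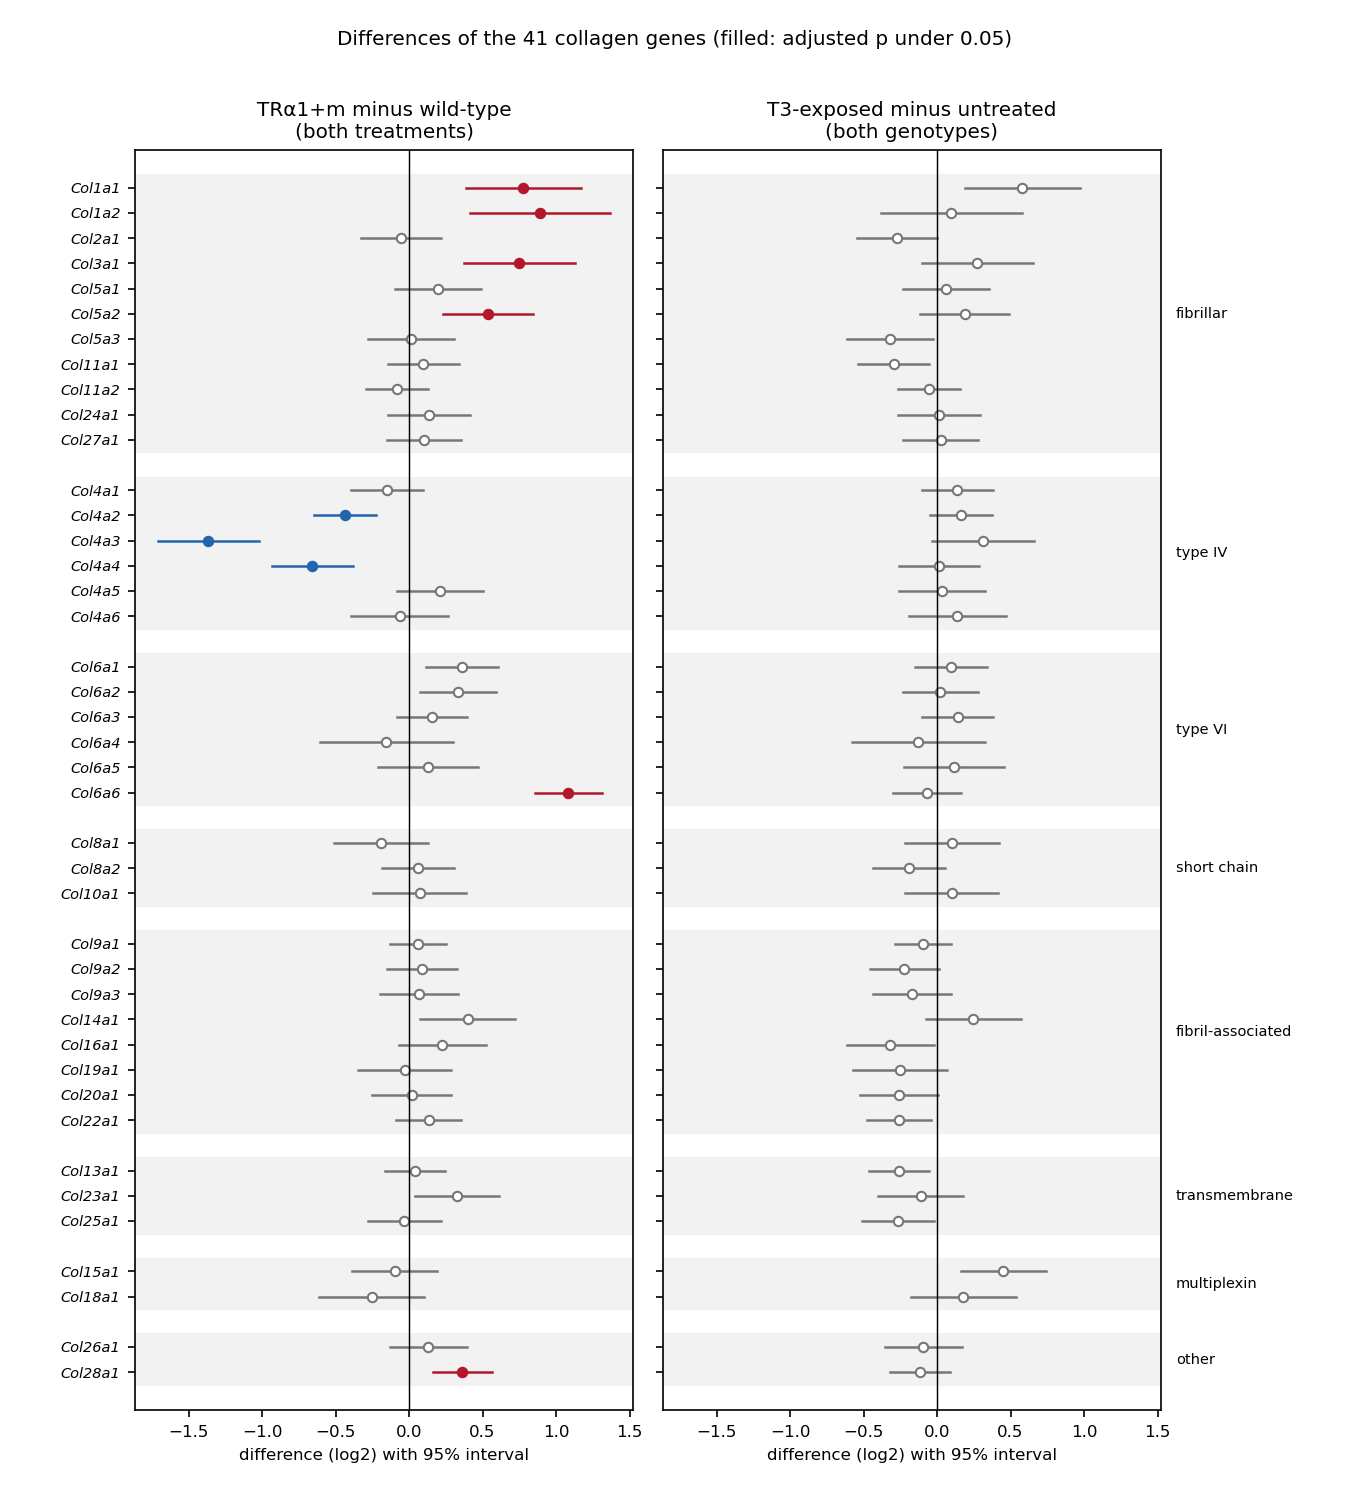
Differences (log2) of the 41 collagen genes, grouped by class, between TRα1+m and wild-type hearts over both treatments (left) and between T3-exposed and untreated hearts over both genotypes (right), with 95% intervals. Filled points passed adjusted p under 0.05, which 9 genes did on the left and 0 on the right. Of all genes tested, 6.28% passed for the left comparison and 0.0101% for the right.

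Among the fibrillar collagens 4 of 11 members were higher and 0 lower in TRα1+m hearts over both treatments, where 2.59% of all genes were higher and 3.7% lower. In this class 9 of 11 differences were above 0, where 48.5% of all genes were. The 4 encode chains of types I, III and V, which assemble into the same fibrils of the heart. The median difference over the class was 0.14.

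Col1a1 encodes the α1 chain of type I collagen, the main fibre of scar tissue. After maternal T3 its lowest, median and highest values were 10.46, 10.69 and 12.52 in TRα1+m hearts against 9.44, 10.30 and 10.89 in wild-type hearts. Without T3 they were 9.90, 10.37 and 11.07 in TRα1+m hearts against 9.46, 9.59 and 9.69 in wild-type hearts. The untreated groups did not overlap, whereas the T3-exposed groups did. Col1a1 was higher by 0.78 ± 0.19 over both treatments (SE, 1.71-fold, adjusted p = 0.011), with TRα1+m above wild-type in 125 of 144 pairs of mice across both treatments. The highest value, 12.52, was that of mouse 16, and without it the difference was 0.62 (adjusted p = 0.0054). Without T3 the difference was 0.83 ± 0.27 and missed the threshold (adjusted p = 0.14), but it passed with array weights, with the 2 groups fitted alone and without the 5 mice set apart (0.93, adjusted p = 0.0088 in the last).

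Col1a2, the partner α2 chain of type I, followed the same direction with a wider spread. Its lowest, median and highest values after maternal T3 were 10.45, 11.13 and 12.53 in TRα1+m hearts and 9.55, 10.67 and 11.30 in wild-type hearts. Those without T3 were 10.90, 11.17 and 11.92 in TRα1+m hearts and 9.29, 10.38 and 11.05 in wild-type hearts. The groups overlapped in both cases. Col1a2 was higher by 0.89 ± 0.23 over both treatments (1.85-fold, adjusted p = 0.018).

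Col3a1 encodes type III collagen, which forms thinner, more compliant fibrils together with type I. T3-exposed TRα1+m hearts had values of 13.49, 13.66 and 15.07 (lowest, median and highest) and T3-exposed wild-type hearts 12.51, 12.85 and 13.86. In untreated mice they were 12.89, 13.51 and 14.35 in TRα1+m and 12.54, 12.81 and 13.15 in wild-type hearts. Again the ranges overlapped in both treatments. The difference was 0.75 ± 0.18 over both treatments (1.68-fold, adjusted p = 0.011), and 0.63 without mouse 16 (adjusted p = 0.015).

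Col5a2, a chain of type V collagen, which starts the fibrils of type I, is the chromosomal neighbour of Col3a1 on chromosome 1. Without T3 its lowest, median and highest values were 6.85, 7.18 and 7.64 in TRα1+m hearts against 5.99, 6.49 and 6.79 in wild-type hearts, with no overlap. After maternal T3 they were 6.68, 7.15 and 7.84 in TRα1+m hearts and 6.31, 6.89 and 7.52 in wild-type hearts, which overlapped widely. The mean of Col5a2 over all mice, 6.94, did not lie above the brightest background set. Col5a2 differed by 0.54 ± 0.15 over both treatments (adjusted p = 0.026), by 0.80 ± 0.21 without T3 (adjusted p = 0.047) and by 0.28 ± 0.21 after maternal T3 (adjusted p = 0.63). The call without T3 missed the threshold when any of 16 of the 24 mice was left out, with adjusted p up to 0.12, and with the mouse number range as a block (adjusted p = 0.07), and the call over both treatments in 3 of 24. Without the 5 mice set apart, the difference over both treatments was 0.45 (adjusted p = 0.08). The difference between the 2 genotype effects was itself not called (interaction -0.52 ± 0.30, adjusted p = 0.9996).

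Other fibrillar members had smaller differences. Col5a1, the α1 chain of type V, differed by 0.20 (adjusted p = 0.52) and Col24a1 and Col27a1, fibrillar collagens of bone and cartilage, by 0.14 and 0.10. Col11a1 had a lowest, median and highest value of 4.45, 5.01 and 5.41 in T3-exposed TRα1+m and 4.42, 4.72 and 5.11 in T3-exposed wild-type hearts, and of 4.95, 5.12 and 5.52 in untreated TRα1+m and 4.72, 5.24 and 5.43 in untreated wild-type hearts. Its genotype groups overlapped throughout (0.10 ± 0.12). The means over all mice of Col5a1 (5.03), Col24a1 (4.10), Col27a1 (4.86) and Col11a1 (5.01) lay below the median background set (6.09), so their values may hold background signal.

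The promoter windows of Col1a2 and Col3a1 are shown because these chains were higher together although their start regions differ in composition. Each window is 300 bases across the RefSeq start site on GRCm38.p6, most of them before it, written 5′ to 3′ along the gene. Capitals mark, on either strand, the TATA box (TATAAA), the CCAAT box (CCAAT), the GC box (GGGCGG) and a sequence that nuclear receptors recognise (AGGTCA), none of which overlap here. The Col1a2 window, chr6:4505368-4505667 on the plus strand, has 61% G and C and the Col3a1 window, chr1:45311288-45311587 on the plus strand, has 37.67%.
Col1a2: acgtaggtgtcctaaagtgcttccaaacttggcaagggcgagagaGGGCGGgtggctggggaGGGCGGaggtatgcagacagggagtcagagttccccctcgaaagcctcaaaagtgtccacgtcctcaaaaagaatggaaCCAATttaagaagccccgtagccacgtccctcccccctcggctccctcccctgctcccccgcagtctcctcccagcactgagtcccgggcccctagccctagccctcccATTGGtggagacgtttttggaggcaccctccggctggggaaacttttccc
Col3a1: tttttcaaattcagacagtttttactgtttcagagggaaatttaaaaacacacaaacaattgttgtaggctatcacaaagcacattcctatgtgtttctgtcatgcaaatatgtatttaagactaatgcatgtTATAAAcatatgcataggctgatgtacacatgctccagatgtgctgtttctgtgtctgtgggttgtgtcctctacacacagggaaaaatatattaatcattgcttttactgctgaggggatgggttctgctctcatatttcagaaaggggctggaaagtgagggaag
Col1a2 held 2 CCAAT boxes and 2 GC boxes, whereas Col3a1 held 1 TATA box. Among 36 windows of the 33 members with an entry, 61.1% held a GC box, 30.6% a CCAAT box, 11.1% a TATA box and 19.4% the receptor sequence. Among all 32851 RefSeq windows of the mouse, 35.7% held a GC box, 37.4% a CCAAT box, 13.6% a TATA box and 16.3% the receptor sequence. A match of these letters is a description and not a binding site.

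Type IV collagen went the other way in part. Over both treatments 3 of 6 chains were lower and 0 higher in TRα1+m hearts, where 3.7% of all genes were lower and 2.59% higher. Only 1 of 6 differences was above 0, where 48.5% of all genes were, and the median was -0.29. Col4a1 and Col4a2 make the common type IV network, and Col4a3 and Col4a4 with Col4a5 make the network of specialised basement membranes such as that of the kidney glomerulus.

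Col4a3 had the largest fitted difference of the 41 members over both treatments, at a level near the array's background. Its lowest, median and highest values after maternal T3 were 5.08, 5.52 and 6.25 in TRα1+m hearts against 6.87, 7.08 and 7.70 in wild-type hearts. Without T3 they were 4.65, 5.53 and 6.17 in TRα1+m hearts against 6.29, 6.58 and 7.11 in wild-type hearts. Every TRα1+m mouse lay below every wild-type mouse in each treatment. Col4a3 was lower by a log2 difference of -1.37 ± 0.17 over both treatments (adjusted p = 3.8e-06), of -1.53 ± 0.24 after maternal T3 (adjusted p = 0.00027) and of -1.20 ± 0.24 without it (adjusted p = 0.005). Whichever mouse was left out, all 3 differences were called. Among mice with numbers above 30 the difference without T3 was -1.09 (adjusted p = 0.1). Its mean over all mice, 6.22, lay below the brightest background set (7.09), and its TRα1+m medians lay below the median set (6.09), so no fold is given.

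Col4a4, its neighbour on chromosome 1, was also lower, and its mean over all mice, 5.81, lay below the median background set. After maternal T3 its lowest, median and highest values were 5.11, 5.35 and 6.14 in TRα1+m hearts against 5.84, 6.13 and 6.59 in wild-type hearts. Without T3 they were 5.24, 5.53 and 5.98 in TRα1+m hearts and 5.64, 6.15 and 6.59 in wild-type hearts. The groups overlapped in both treatments, and mouse 17 supplied the 6.14. Col4a4 differed by -0.66 ± 0.13 over both treatments (adjusted p = 0.002), by -0.77 ± 0.19 after maternal T3 (adjusted p = 0.021) and by -0.55 ± 0.19 without it, which missed the threshold (adjusted p = 0.18). The call after maternal T3 was lost when any of 3 of the 24 mice was left out and with the 2 groups fitted alone. Without mouse 17 the difference over both treatments was -0.73 (adjusted p = 0.0003).

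Col4a2 encodes the α2 chain of the common network. T3-exposed TRα1+m hearts had values of 10.41, 10.57 and 10.71 (lowest, median and highest), all below the 10.76, 11.10 and 11.47 of T3-exposed wild-type hearts. Without T3 they were 10.31, 10.56 and 10.72 in TRα1+m and 10.25, 10.90 and 11.19 in wild-type hearts, where 1 wild-type mouse was the lowest of all. Col4a2 differed by -0.55 ± 0.15 after maternal T3 (adjusted p = 0.035), a call that was lost when any of 8 of the 24 mice was left out, with the 2 groups fitted alone and without the 5 mice set apart (adjusted p = 0.068), and by -0.44 ± 0.10 over both treatments (adjusted p = 0.0082), which held whichever mouse was left out.

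Col4a1, whose product assembles with that of Col4a2 and whose start site lies 21 bases away on the opposite strand, did not pass. Its lowest, median and highest values were 8.42, 8.92 and 9.11 in T3-exposed TRα1+m hearts against 8.77, 9.15 and 9.54 in T3-exposed wild-type hearts. Untreated, they were 8.49, 8.87 and 9.12 in TRα1+m hearts against 8.48, 8.81 and 9.25 in wild-type hearts. Col4a1 differed by -0.003 ± 0.17 without T3 (adjusted p = 0.998) and by -0.30 ± 0.17 after maternal T3 (adjusted p = 0.46). Over both treatments its difference was -0.15 ± 0.12 (95% interval -0.39 to 0.09, adjusted p = 0.56). The difference of Col4a2 had an interval of -0.65 to -0.22, and the difference between the chains was not tested.

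Col4a5 and Col4a6, the X-linked chains, were not called. Col4a5 values were 6.49, 6.97 and 7.50 (lowest, median and highest) in T3-exposed TRα1+m and 6.51, 6.99 and 7.72 in T3-exposed wild-type hearts, and 6.85, 7.21 and 7.79 in untreated TRα1+m and 6.45, 6.70 and 7.32 in untreated wild-type hearts. The untreated groups overlapped, and the untreated difference was 0.49 ± 0.20 (adjusted p = 0.31). Col4a6 differed by -0.07 over both treatments (adjusted p = 0.89).

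The windows of Col4a2 and Col4a4 are shown since both genes were lower and their neighbours share the region. Col4a2 lies at chr8:11312555-11312854 on the plus strand, and its window shares 78 bases with that of Col4a1. The Col4a4 window lies at chr1:82586800-82587099 on the minus strand.
Col4a2: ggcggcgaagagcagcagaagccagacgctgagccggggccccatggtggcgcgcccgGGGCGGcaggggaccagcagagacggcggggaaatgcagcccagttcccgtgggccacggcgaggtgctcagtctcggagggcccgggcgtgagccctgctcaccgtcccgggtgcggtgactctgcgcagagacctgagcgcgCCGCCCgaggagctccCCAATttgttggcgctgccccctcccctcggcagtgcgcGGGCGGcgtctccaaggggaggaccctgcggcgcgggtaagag
Col4a4: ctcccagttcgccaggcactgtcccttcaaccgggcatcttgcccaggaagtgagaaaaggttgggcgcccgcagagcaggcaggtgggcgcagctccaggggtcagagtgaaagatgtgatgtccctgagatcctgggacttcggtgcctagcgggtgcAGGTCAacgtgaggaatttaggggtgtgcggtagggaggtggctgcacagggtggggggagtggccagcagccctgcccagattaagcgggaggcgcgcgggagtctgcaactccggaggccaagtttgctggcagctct
Col4a2 held 3 GC boxes and 1 CCAAT box. Col4a4 held 1 match to the receptor sequence, which 16.3% of all windows also held.

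Basement membrane partners were split as well. Of 10 tested, Lamb1, a laminin β1 chain, was higher (0.65 ± 0.11, adjusted p = 0.00028) and Lamb2, the laminin β2 chain, was lower (-0.58 ± 0.10, adjusted p = 0.00041). Of all genes tested, 2.59% were higher and 3.7% lower. Endothelial cells also make type IV collagen. Of 6 endothelial markers tested, 2 were lower, where 3.7% of all genes were, namely Vwf (-0.94 ± 0.13, adjusted p = 2.6e-05) and Tie1 (-0.61 ± 0.11, adjusted p = 0.00053). The mean log2 value of the 6 endothelial markers was 11.96 to 12.59 in T3-exposed TRα1+m and 12.17 to 12.87 in T3-exposed wild-type hearts, and 12.06 to 12.44 in untreated TRα1+m and 12.51 to 12.75 in untreated wild-type hearts. Their part in the type IV difference was not tested, and these lists were chosen with earlier results of these data known.

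Type VI collagen held the member with the smallest p. Only Col6a6 of its 6 chains was called over both treatments, where 2.59% of all genes were higher and 3.7% lower. Of the 6 differences (median 0.24), 5 were above 0, where 48.5% of all genes were. Col6a6 encodes the α6 chain of type VI, a relative of the α3 chain.

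The values of Col6a6 were tightly grouped in T3-exposed TRα1+m hearts, with a lowest, median and highest value of 8.08, 8.16 and 8.28, against 6.43, 6.91 and 7.32 in T3-exposed wild-type hearts. Without T3 they were 7.86, 8.06 and 8.43 in TRα1+m hearts against 6.62, 7.26 and 7.45 in wild-type hearts. Every TRα1+m mouse lay above every wild-type mouse, in 144 of 144 pairs over both treatments. Col6a6 was higher by 1.08 ± 0.11 over both treatments (2.12-fold, adjusted p = 2.3e-07), by 1.23 ± 0.16 after maternal T3 (adjusted p = 2.7e-05) and by 0.94 ± 0.16 without it (adjusted p = 0.00098). All 3 differences were called whichever mouse was left out. The wild-type means, 6.93 after maternal T3 and 7.14 without it, lay near the brightest background set (7.09), which limits how the fold of Col6a6 can be read.

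The window of Col6a6, at chr9:105828036-105828335 on the minus strand, is shown because this gene had the smallest p of the family, and it held 2 GC boxes.
Col6a6: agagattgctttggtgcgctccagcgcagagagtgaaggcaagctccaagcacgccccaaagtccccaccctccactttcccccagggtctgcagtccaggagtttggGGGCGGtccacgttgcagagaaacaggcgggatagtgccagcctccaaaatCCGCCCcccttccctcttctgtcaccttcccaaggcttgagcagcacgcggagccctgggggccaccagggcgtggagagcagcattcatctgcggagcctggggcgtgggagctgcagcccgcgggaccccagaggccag
Col6a5, the next protein-coding gene on chromosome 9, differed by 0.13 (adjusted p = 0.76) and Col6a4, the gene after it, by -0.15 (adjusted p = 0.79). Over all mice Col6a5 averaged 4.55 and Col6a4 6.35, below the brightest background set (7.09). Col6a6 averaged 7.58, above this set, but its wild-type means were 6.93 after maternal T3 and 7.14 without it. The difference between Col6a6 and these neighbours was not tested.

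The main chains of type VI had smaller differences. Col6a1 values were 9.97, 10.33 and 10.96 (lowest, median and highest) in T3-exposed TRα1+m and 9.53, 9.90 and 10.47 in T3-exposed wild-type hearts, and 10.05, 10.18 and 10.48 in untreated TRα1+m and 9.77, 9.92 and 10.05 in untreated wild-type hearts. The untreated groups met at 10.05 without overlap, the T3-exposed groups overlapped, and the difference over both treatments was 0.36 ± 0.12 (95% interval 0.11 to 0.61, adjusted p = 0.076).

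Col6a2 lies next to Col6a1 on chromosome 10. Its values were 10.43, 10.61 and 11.18 in T3-exposed TRα1+m and 9.99, 10.42 and 10.80 in T3-exposed wild-type hearts, and 10.06, 10.76 and 11.14 in untreated TRα1+m and 10.13, 10.39 and 10.51 in untreated wild-type hearts. The groups overlapped, with a difference of 0.33 ± 0.13 (adjusted p = 0.13). Col6a3 had values of 9.34, 9.62 and 10.01 in T3-exposed TRα1+m and 8.98, 9.55 and 9.79 in T3-exposed wild-type hearts, and 9.26, 9.44 and 9.81 in untreated TRα1+m and 9.10, 9.33 and 9.72 in untreated wild-type hearts. They overlapped in both cases (0.16 ± 0.12, adjusted p = 0.54).

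**Figure D3:**
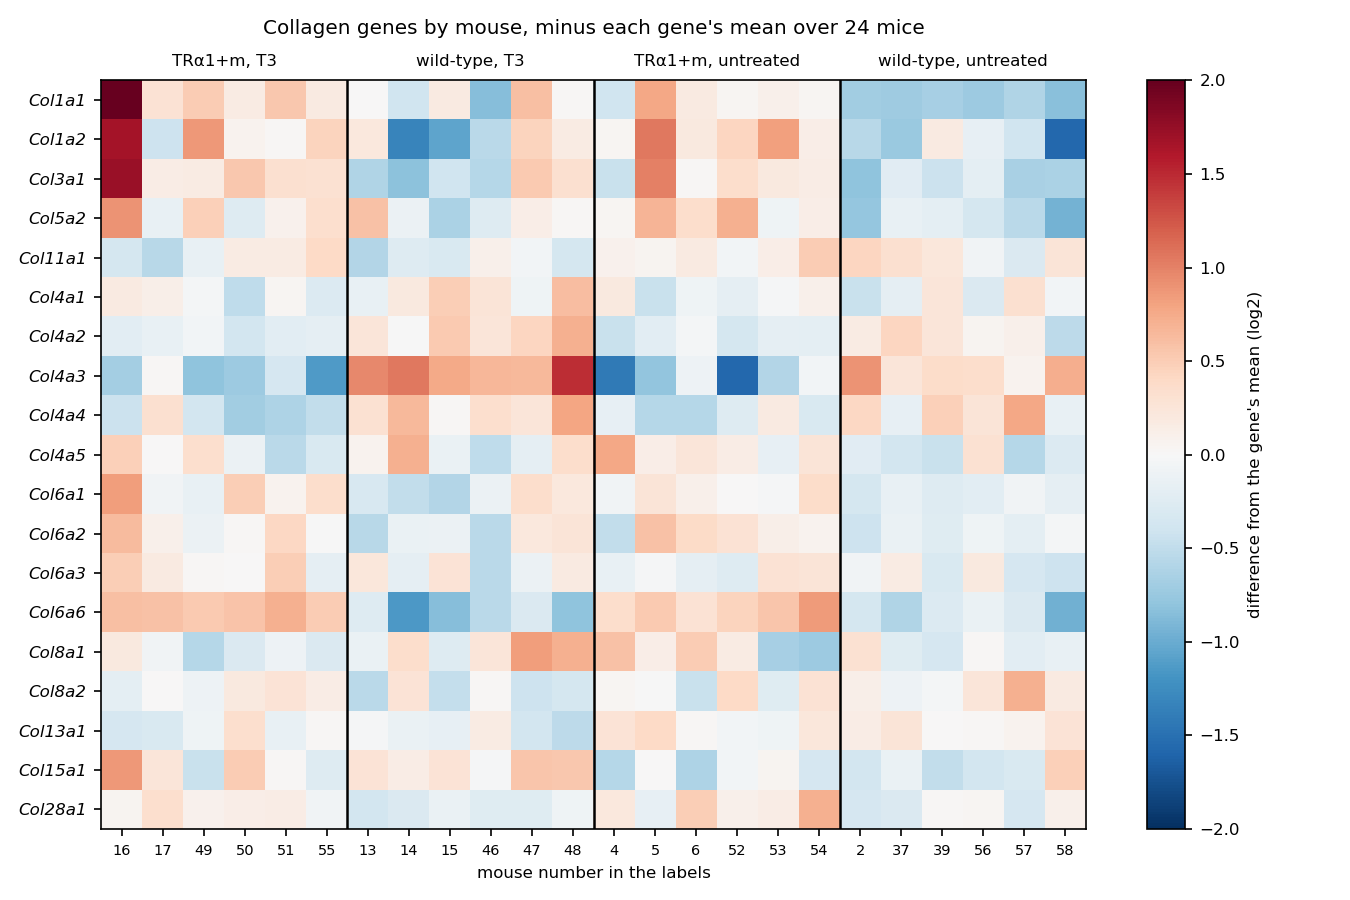
Values of 19 collagen genes in each mouse minus the gene's mean over 24 mice (log2, red above and blue below; colours end at -2 and 2), with mice in columns under their group. T3-exposed TRα1+m mouse 16 is high in Col1a1, Col1a2, Col3a1 and Col5a2 together, while Col4a3 and Col6a6 keep their colour across most mice of a genotype.

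The remaining classes held 3 short chain, 8 fibril-associated, 3 transmembrane, 2 multiplexin and 2 other collagens. They had 1 called member in all, where 6.28% of all genes tested were called. Col28a1, which encodes a beaded collagen found around nerves, had values of 7.06, 7.23 and 7.47 (lowest, median and highest) in T3-exposed TRα1+m hearts, all above the 6.76, 6.88 and 7.05 of T3-exposed wild-type hearts. In untreated mice they were 6.96, 7.30 and 7.83 in TRα1+m and 6.78, 6.996 and 7.22 in wild-type hearts, which overlapped. Col28a1 was higher by 0.36 ± 0.10 over both treatments (adjusted p = 0.024) and missed the threshold without T3 (adjusted p = 0.22) and after T3 (adjusted p = 0.24). Without the 5 mice set apart on the first principal component its adjusted p was 0.07. Of 3 Schwann cell markers tested, 0 had a difference above 0, where 48.5% of all genes did. Of the 3, 1 was called lower, where 3.7% of all genes were, namely Kcna1, a potassium channel gene (-1.0045 ± 0.15, adjusted p = 7.5e-05). The group means of Kcna1, 4.66 to 5.91, lay below the median background set (6.09). The mean of the 3 markers was 4.42 to 5.04 in T3-exposed TRα1+m and 4.89 to 5.33 in T3-exposed wild-type hearts, and 4.48 to 5.13 in untreated TRα1+m and 5.05 to 5.31 in untreated wild-type hearts. The part of these cells in the Col28a1 difference was not tested, and the marker list was chosen with earlier results of these data known.

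Of the 3 short chain collagens, which form open networks, 0 were called. Col8a1, of the vessel wall, had values of 5.44, 5.81 and 6.20 in T3-exposed TRα1+m and 5.75, 6.30 and 6.84 in T3-exposed wild-type hearts, and of 5.27, 6.15 and 6.60 in untreated TRα1+m and 5.68, 5.83 and 6.32 in untreated wild-type hearts. Col8a2 had values of 7.71, 7.99 and 8.19 in T3-exposed TRα1+m and 7.37, 7.52 and 8.19 in T3-exposed wild-type hearts, and of 7.45, 7.92 and 8.30 in untreated TRα1+m and 7.81, 8.06 and 8.61 in untreated wild-type hearts. All of these ranges overlapped. Col8a1 differed by -0.19 ± 0.16 over both treatments (adjusted p = 0.59) and by -0.57 among mice with numbers above 30 alone (adjusted p = 0.039).

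The 8 fibril-associated, 3 transmembrane and 2 multiplexin collagens had 0 calls. Among them the largest differences by genotype were those of Col14a1, which binds fibrils (0.40, adjusted p = 0.15), Col23a1, a transmembrane collagen (0.33, adjusted p = 0.2), and Col18a1, whose fragment is endostatin (-0.26, adjusted p = 0.49). The 22 members not given by group spanned values between 3.36 (Col10a1) and 10.10 (Col16a1).

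Within each treatment the counts were smaller. After maternal T3, 4 members were called, 1 higher (Col6a6) and 3 lower (Col4a2, Col4a3 and Col4a4) in TRα1+m hearts, where 2.79% of all genes were called, 1.13% higher and 1.66% lower. Without T3, 3 were called, 2 higher (Col5a2 and Col6a6) and 1 lower (Col4a3), where 1.62% of all genes were called, 0.566% higher and 1.06% lower. At an unadjusted p under 0.05 there were 11 members after T3, where 13.7% of all genes were, and 10 without it, where 11.5% were. For the interaction, which tests whether the genotype differences differ, 0 of 41 members and 0% of all genes were called in limma, and at an unadjusted p under 0.05 there were 0 members, where 4.19% of all genes were.

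When mice with numbers above 30 were fitted alone, Col4a3 (-1.38, adjusted p = 0.00096), Col4a4 (-0.68, adjusted p = 0.019) and Col6a6 (1.09, adjusted p = 0.0002) were still called over both treatments. Col1a1 (0.59, adjusted p = 0.056), Col4a2 (-0.48, adjusted p = 0.058), Col3a1 (0.45, adjusted p = 0.12), Col1a2 (0.67, adjusted p = 0.15), Col28a1 (0.34, adjusted p = 0.15) and Col5a2 (0.44, adjusted p = 0.16) kept their direction and missed the threshold. Among the 9 mice with numbers below 20 all 9 genes again kept their direction, between -1.46 for Col4a3 and 1.27 for Col3a1, and 0 were called. With 1 untreated wild-type mouse in that range, whose spread is assumed to be like that of the other groups, this count of 0 says nothing about stability. With the number range as a block, all 9 remained called over both treatments.

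By maternal T3, limma called 0 members over both genotypes, where it called 0.0101% of all genes. It called 0 within TRα1+m mice, where 0.0859% of all genes were called, and 0 within wild-type mice, where 0.00505% were. At an unadjusted p under 0.05 there were 8 members over both genotypes, where 16.3% of all genes were. There were 1 within TRα1+m mice, where 8.31% of all genes were, and 10 within wild-type mice, where 11% were. The differences over both genotypes lay between -0.32 for Col5a3 and 0.58 for Col1a1, with a median of 0.01.

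Col1a1 was higher by 0.58 ± 0.19 in T3-exposed than in untreated hearts (95% interval 0.19 to 0.97, adjusted p = 0.16). T3-exposed mice lay above untreated mice in 108 of 144 pairs formed across genotypes. Col15a1, a basement membrane collagen of muscle and vessels, had values of 7.67, 8.24 and 8.98 (lowest, median and highest) in T3-exposed TRα1+m against 7.49, 7.91 and 8.17 in untreated TRα1+m hearts, and 8.09, 8.38 and 8.66 in T3-exposed wild-type against 7.61, 7.78 and 8.58 in untreated wild-type hearts. The ranges overlapped in both genotypes, with a difference of 0.45 ± 0.14 (adjusted p = 0.15).

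Col11a1 (-0.30 ± 0.12, adjusted p = 0.22) and Col13a1, a transmembrane collagen of muscle (-0.26 ± 0.10, adjusted p = 0.21), had the lowest p among those with a negative difference. Col13a1 values were 7.18, 7.40 and 7.86 in T3-exposed TRα1+m against 7.43, 7.64 and 7.92 in untreated TRα1+m hearts, and 6.99, 7.37 and 7.69 in T3-exposed wild-type against 7.53, 7.63 and 7.79 in untreated wild-type hearts. These overlapped as well. For the interaction, taken as the T3 difference of TRα1+m hearts less that of wild-type hearts, Col8a1 (-0.58), Col4a5 (-0.56), Col5a2 (-0.52) and Col8a2 (0.49) had the lowest p, each with an adjusted p of 0.9996.

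T3-exposed TRα1+m hearts against untreated wild-type hearts gave 6 called members, 4 higher and 2 lower, where 4.45% of all genes were called, 2.32% higher and 2.13% lower. At an unadjusted p under 0.05 there were 9 members, where 18.9% of all genes were. Col1a1 (1.35 ± 0.27, adjusted p = 0.0031), Col3a1 (1.02 ± 0.26, adjusted p = 0.02), Col5a2 (0.73 ± 0.21, adjusted p = 0.044) and Col6a6 (1.02 ± 0.16, adjusted p = 0.00024) were higher, and Col4a3 (-1.05 ± 0.24, adjusted p = 0.0084) and Col4a4 (-0.65 ± 0.19, adjusted p = 0.047) were lower. Without mouse 16 this count was 3, Col3a1 (adjusted p = 0.062), Col5a2 (adjusted p = 0.13) and Col4a4 (adjusted p = 0.089) no longer passing, and without untreated wild-type mouse 2 it was also 3. Leaving out 1 mouse lost the call of Col4a4 in 15 cases of 24 and that of Col5a2 in 10, and 6 of 11 other settings ended each. With the number range as a block the adjusted p was 0.05025 for Col4a4 and 0.05125 for Col5a2, and both calls were lost with the 2 groups alone and within each number range. That of Col4a4 was also lost with no filter and with a trended, robust eBayes, and that of Col5a2 with array weights and without the 5 mice set apart. In the same comparison all 4 fat cell markers tested had differences above 0 (median 1.33), and 1 was called, Fabp4, a fatty acid carrier (1.22 ± 0.27, adjusted p = 0.0079). Their part in the collagen differences was not tested. This comparison shares mice with those above.

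Partner chains were compared mouse by mouse as deviations from the group mean. Relabelling crossed all 4 groups, although their spreads differed. The SD of Col1a1 was 0.08 in untreated wild-type and 0.79 in T3-exposed TRα1+m hearts. The permutation p-values are therefore approximate. The 24 mice gave r = 0.638 for Col1a1 and Col1a2 (permutation p = 0.00048, adjusted over 6 pairs 0.0029) and Spearman's rho = 0.599 (permutation p = 0.0024, adjusted 0.015), from 100000 relabellings. Without the 2 mice farthest out in Col1a1, r was 0.553, and it was 0.815 among mice with numbers below 20 (n = 9) and 0.515 above 30 (n = 15). The chains of type I varied together within groups.

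For Col3a1 and Col5a2, r was 0.512 (permutation p = 0.01, adjusted 0.023) and rho 0.398 (permutation p = 0.053, adjusted 0.11), with r = 0.627 below 20 (n = 9) and 0.347 above 30 (n = 15). For Col6a1 and Col6a2, r was 0.503 (permutation p = 0.012, adjusted 0.023) and rho 0.407 (permutation p = 0.049, adjusted 0.11), with r = 0.581 below 20 (n = 9) and 0.415 above 30 (n = 15). Without the 2 farthest mice r was lower, at 0.290 and 0.316, and was not tested again.

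Neighbouring type IV chains had lower r, and the r of different pairs were not tested against each other. Col4a1 and Col4a2 had r = 0.182 (permutation p = 0.4, adjusted 0.55; rho 0.224, permutation p = 0.29, adjusted 0.44), Col4a3 and Col4a4 r = 0.158 (permutation p = 0.46, adjusted 0.55; rho 0.091, permutation p = 0.67, adjusted 0.8) and Col4a5 and Col4a6 r = -0.006 (permutation p = 0.98, adjusted 0.98; rho 0.030, permutation p = 0.89, adjusted 0.89). Leaving out the 2 farthest mice gave 0.174, 0.205 and -0.001. Col4a3, Col4a4, Col4a5 and Col4a6 averaged 6.22, 5.81, 7.02 and 5.19 over all mice. These means lay below the brightest background set (7.09), and the part of background in the r of these genes was not tested. Col4a1 and Col4a2 (8.93 and 10.77) lay above it.

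**Figure D4:**
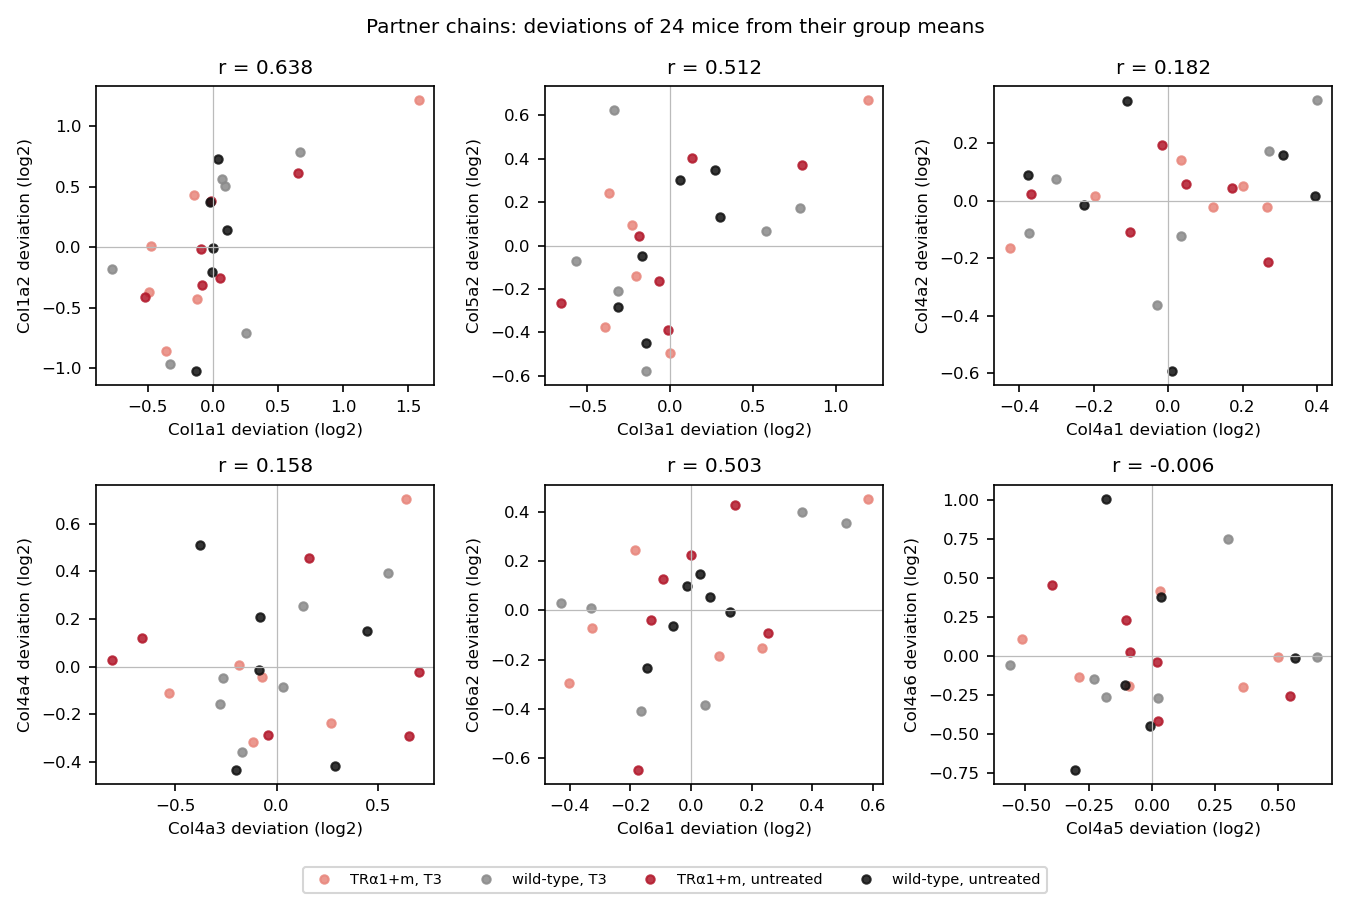
Deviations from the group mean (log2) of 6 pairs of partner or neighbouring collagen genes in 24 mice, coloured by group, with Pearson's r above each panel. Col1a1 and Col1a2 rise together (r = 0.638), with T3-exposed TRα1+m mouse 16 at the upper right, and the type IV pairs show no clear slope. Col4a3, Col4a4, Col4a5 and Col4a6 averaged below the brightest background set.

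The other genes of the collagen pathway were counted over both treatments in the same fit. The shares to set these counts against are the 2.59% higher and 3.7% lower of all genes tested. The lists were chosen with earlier results of these data known, and some genes are in several lists. A count above these shares is therefore no test of a list. Of 31 genes of collagen synthesis and secretion, 1 was higher and 3 lower in TRα1+m hearts. P3h4, a partner of the lysyl hydroxylase complex, was higher (0.65 ± 0.12, adjusted p = 0.0007), and P4ha2, a prolyl hydroxylase (-0.68 ± 0.12, adjusted p = 0.00052), Colgalt2, which adds sugars (-0.69 ± 0.14, adjusted p = 0.0023), and Plod1, a lysyl hydroxylase (-0.42 ± 0.11, adjusted p = 0.017), were lower. P4ha2 had lowest, median and highest values of 9.13, 9.80 and 10.22 in T3-exposed TRα1+m against 10.21, 10.49 and 10.88 in T3-exposed wild-type hearts, which overlapped only slightly.

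Of 16 proteins that bind collagen fibrils, 6 were higher and 0 lower, where 2.59% of all genes were higher. This list was also chosen with earlier results of these data known. Postn, the periostin gene of activated fibroblasts, was higher by 1.63 ± 0.22 (adjusted p = 1.1e-05), Aspn, which binds type I fibrils, by 1.07 ± 0.13 (adjusted p = 2.4e-06) and Fn1, fibronectin, by 0.86 ± 0.19 (adjusted p = 0.0039). Comp, which bridges fibrils, was higher by 0.84 ± 0.19 (adjusted p = 0.006). The Aspn values were 11.46, 11.78 and 12.41 in T3-exposed TRα1+m against 10.23, 10.86 and 11.21 in T3-exposed wild-type hearts, which did not overlap.

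Of 10 genes of collagen breakdown, 3 were higher and 0 lower, namely Mmp2, a gelatinase (0.94 ± 0.11, adjusted p = 1.4e-06), Fap, a fibroblast protease (0.69 ± 0.16, adjusted p = 0.0078), and Ctsk, which cuts type I collagen (0.70 ± 0.19, adjusted p = 0.024). Of 9 collagen receptors 0 were called, with Ddr2, a receptor of fibrillar collagen, at -0.45 (adjusted p = 0.092). Of 16 genes of profibrotic signalling 2 were higher, Ltbp3 (0.66 ± 0.13, adjusted p = 0.0012) and Ltbp1 (0.36 ± 0.10, adjusted p = 0.027), which store transforming growth factor β in the matrix. Maternal T3 over both genotypes gave 0 calls in each of these lists.

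Markers of the cells that make collagen moved in part. Of 8 fibroblast markers, 1 was higher, where 2.59% of all genes were, namely Dpt, a fibril-binding protein of fibroblasts (0.47 ± 0.12, adjusted p = 0.014). Dcn (0.20, adjusted p = 0.21) and Tcf21 (0.32, adjusted p = 0.39) were not called. Nor was Ddr2, the lowest of the 8 (-0.45, adjusted p = 0.092). Of the 8 differences 6 were above 0 and 2 below, where 48.5% of all genes were above 0. The mean of the fibroblast markers was 12.55 to 13.12 in T3-exposed TRα1+m and 12.47 to 12.68 in T3-exposed wild-type hearts, and 12.34 to 12.91 in untreated TRα1+m and 12.29 to 12.62 in untreated wild-type hearts. Of 6 myofibroblast markers, 3 were higher, Postn, Comp and Fap, named above. The mean of these 6 was 8.83 to 9.81 in T3-exposed TRα1+m and 7.98 to 9.05 in T3-exposed wild-type hearts, and 8.70 to 9.54 in untreated TRα1+m and 7.80 to 8.60 in untreated wild-type hearts. Msln, of mesothelial cells, was higher (0.75 ± 0.15, adjusted p = 0.002) among 5 such markers, and Csf1r, of macrophages, was lower (-0.66 ± 0.15, adjusted p = 0.0058) among 5 immune markers. The part of these cells in the collagen differences was not tested, and the marker lists were chosen with earlier results of these data known.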

How the data were processed

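Whole heart RNA of 24 mice was isolated with a Qiagen fibrous tissue kit, biotin-labelled and hybridised to Clariom S arrays. The authors computed RMA values (background correction, quantile normalisation and probe summary) with Transcriptome Analysis Console 4.0.1 and deposited them on the log2 scale. Array number, not depth, limits precision, and background limits how the dimmer genes can be read. The deposited table had 28846 rows, of which 6640 controls were left out, and 2634 probe sets had no symbol. The 19572 probe sets with a symbol were named from the array's annotation and all matched RefSeq genes of GRCm38.p6. Where a symbol had several probe sets (55 symbols), the brightest on average was kept. No 2 arrays were identical among 276 pairs, and correlations between arrays were 0.969 to 0.990.

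Genes with a mean above 4 in at least 1 group (19801) were fitted with limma 3.58.1 in R 4.3.3 (lmFit, eBayes, 4 group means, all 24 arrays), with Benjamini-Hochberg adjustment over all of them. Differences are log2 with standard errors, and 8 comparisons were made. The fit was tested on simulated data. Correlations used 100000 relabellings across all 4 groups in scipy 1.17.1. Members, gene lists and full-value genes were chosen with earlier results of these data known. Values by group are given for each member called in any comparison, for the 4 members of lowest p without T3, by maternal T3 and by interaction, and for Col1a1, Col1a2, Col3a1, Col4a1, Col4a2, Col6a1, Col6a2 and Col6a3. Other lists give up to 4 called genes each, or the gene of lowest p. The list genes Col7a1 and Col12a1 were not analysed here. Alternatives were other filters, eBayes settings, array weights, centring, mean probe sets, the mouse number range, the 2 groups alone, the methods' two-factor test, and leaving out mice. Fitting mice with numbers below 20 alone was added after seeing the data.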

Additional observations from a re-analysis of the deposited data

Results flagged for a closer look

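In 3 of 76 groups of 6 mice, 1 mouse lay far from the other 5, by Dixon's ratio of the gap to the whole range, which chance gives in about 1 group in 20. T3-exposed TRα1+m mouse 16 had a Col1a1 value of 12.52, where the next was 10.82, and a Col3a1 value of 15.07, where the next was 13.87. T3-exposed TRα1+m mouse 17 had a Col4a4 value of 6.14, where the next was 5.44. Both mice were among the 5 set apart on the first principal component.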

How the results depend on the processing

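Among mice with numbers above 30 alone, 4 members were called over both treatments, 1 without T3 and 3 between TRα1+m mice of treated dams and wild-type mice of untreated dams, and among those below 20 alone 0 in each of these and 0 after maternal T3. Below 20 the untreated wild-type mice number 1, so these counts of 0 say nothing about stability. With the arrays of the 2 groups alone, 2 members were called after maternal T3. Without the 5 mice set apart on the first principal component, 6 were called without T3. Fewer mice were fitted in each of these, and the cause was not tested. Leaving out 1 mouse in turn gave 2 to 4 called members without T3, 2 to 4 after maternal T3, 8 to 10 over both treatments, 3 to 6 between TRα1+m mice of treated dams and wild-type mice of untreated dams, and 0 for every comparison of maternal T3 and the interaction. After maternal T3 the count was 2 without wild-type mouse 48 or without TRα1+m mouse 50 or 51. No direction turned in any called result under these settings. Shares of all genes called are not given for these settings, so changes in the counts cannot be told from changes over the whole array. No paired analysis was possible because each mouse number occurs in 1 group. The arrays' background limits the dimmer members, and the labels do not name litters.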

Other observations

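The 4 fibrillar genes higher in TRα1+m hearts were also averaged in each mouse after centring each gene on its mean over 24 mice. The lowest, median and highest means were -0.03, 0.28 and 1.63 in T3-exposed TRα1+m hearts against -0.66, -0.21 and 0.42 in T3-exposed wild-type hearts. Without T3 they were -0.19, 0.22 and 0.88 in TRα1+m hearts against -0.99, -0.50 and -0.28 in wild-type hearts. The untreated groups did not overlap, and the genes were chosen by the same comparison, so no test is given.

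Fat cell markers varied more between mice than those of any other list, with means of 7.98 to 11.67 in T3-exposed TRα1+m and 7.60 to 10.66 in T3-exposed wild-type hearts, and 7.61 to 10.34 in untreated TRα1+m and 7.45 to 9.67 in untreated wild-type hearts. By genotype over both treatments all 4 had differences above 0 (median 0.70), and 0 were called in limma, with 1 at an unadjusted p under 0.05. Their relation to the collagen genes was not tested.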
